A study of Mus musculus with 14 samples.

Results

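Transcripts of 10 genes were followed in B-1a cells, a self-renewing B cell type that carries CD5, from the peritoneum of Bmi1 KO and wild-type (WT) mice: Lin28a, Lin28b, Igf2bp1, Igf2bp2, Igf2bp3, Hmga1, Hmga2, Igf2 and H19 of the fetal Lin28 programme, and Arid3a, a DNA-binding factor of early B cells. The genes were chosen by name, and every non-control probe that the array design assigns to them was kept. This gave 22 probes of 10 genes, out of 55681 probes under 34821 gene names.

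One-colour arrays were hybridised with RNA of 7 Bmi1 KO samples and 7 WT samples, 1 sample an array. The work was done in 2 sets of experiments, which the titles separate only by how they number samples: set 1 has 3 KO and 3 WT arrays, and set 2 has 4 KO and 4 WT arrays. Both groups are described only by genotype, tissue and cell type. The labels do not state the deleted part of Bmi1, the strain, age and sex of the mice, or any treatment. Nor do they say that the samples are separate animals, so the spread behind each p-value may be technical.

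Lin28a and Lin28b are RNA-binding proteins that block the maturation of let-7 microRNAs. Mature let-7 represses mRNAs such as Hmga2 and those of the Igf2bp family, so these genes tend to be high together in fetal tissue and low in adult tissue. In mouse lymphoid progenitors Lin28b promotes the fetal type of lymphopoiesis, which yields B-1a cells, and Arid3a acts downstream of it. Bmi1 belongs to a Polycomb repressive complex, and the comparison asks how B-1a cells differ without it.

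Arid3a, Hmga1 and a single H19 probe gave signal above background on 11 to 14 of the 14 arrays. Lin28a, Igf2bp3 and Hmga2 did so on 7 to 9 of the 14, and Lin28b, Igf2bp1, Igf2bp2 and Igf2 on few or none. None of the 22 probes differed between genotypes after adjustment over all probes. The widest difference was that of Igf2bp3, 3.34 higher in KO on the log2 scale (SE 1.29, n = 7 each, limma, adjusted p = 0.338).

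A probe was counted as detected on an array where the scanner software marked its signal well above background. Levels are log2 of the processed intensity minus the 75th percentile of that array, so 0 is the level below which 75% of its non-control spots lie. Levels of different probes are not comparable with one another. A probe was tested where 4 or more of the 7 KO arrays, or of the 7 WT arrays, detected it. This held for 9 of the 22 probes, from 6 genes, and for 29689 of all probes. Of the other 13 probes, 4 were detected on no array. KO arrays detected 48 of 154 possible combinations of probe and array and WT arrays 67 of 154. A single KO array detected 4 to 9 of the 22 probes (median 7) and a single WT array 7 to 13 (median 10).

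**Figure D1:**
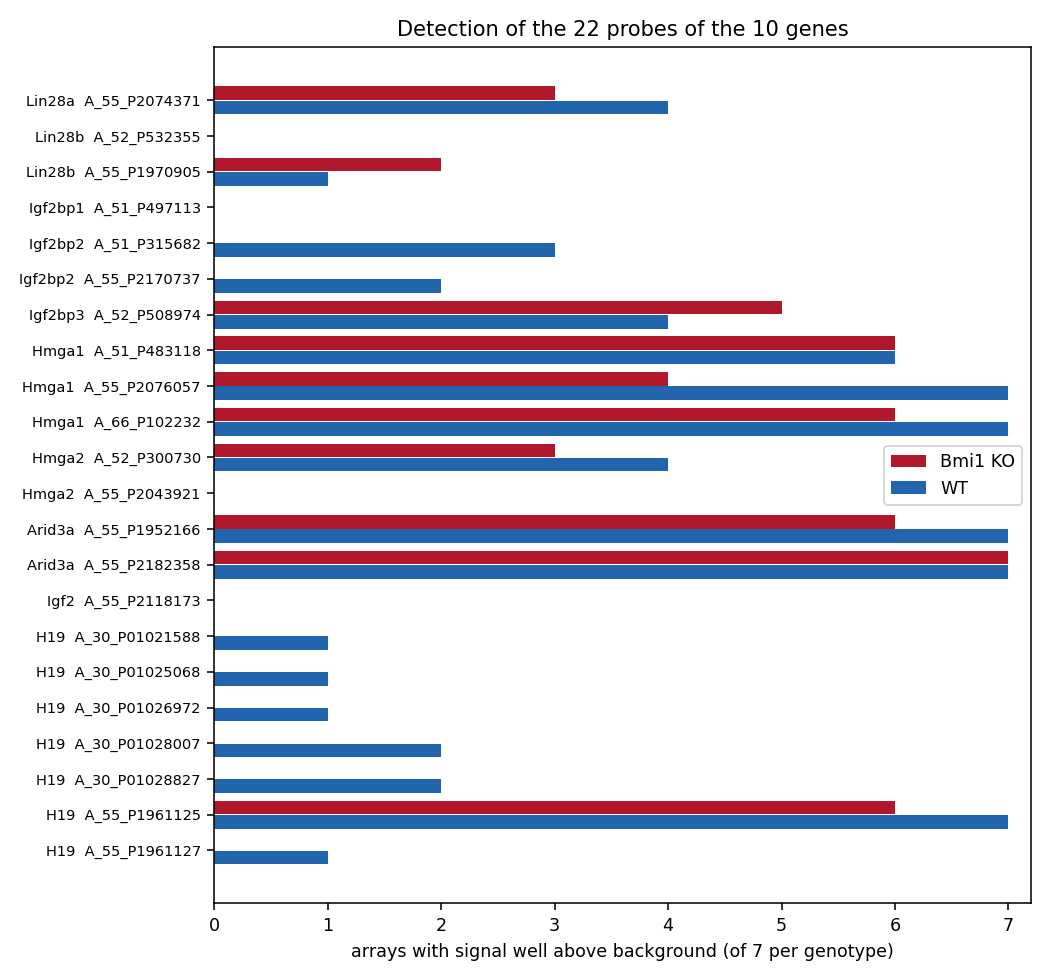
Arrays with signal well above background (horizontal axis, out of 7 per genotype) for each of the 22 probes, with Bmi1 KO and WT shown separately. Arid3a, Hmga1 and H19 A_55_P1961125 reach 4 to 7 arrays in both genotypes, while 4 probes reach none.

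The arrays themselves differed in brightness. The share of non-control spots well above background was 40.6% ± 14.4 in KO (SD, n = 7, range 20.6% to 56.6%) and 52.3% ± 7.12 in WT (SD, n = 7, range 43.7% to 63.1%; exact permutation test of genotype within sets, two-sided, p = 0.0457). The 4 arrays under 40% were all KO, namely replicate 4 of set 1 and replicates 1, 2 and 3 of set 2. On the dimmest of them, KO set 2 replicate 2, the lowest spot level well above background was 0.51, while on every other array it lay below 0. Igf2, which no array detected, had a scaled level of -1.43 on that array and of -6.29 on KO set 1 replicate 3. Differences are therefore also given without the 4 dim arrays, an alternative chosen after seeing the data. How far brightness contributes to each difference was not tested. Over all tested probes the median KO minus WT difference was 0.32, and it was -0.11 without the dim arrays. With scaling to the probes that every array detected, the median was -1.04.

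All 7 B cell markers, among them Cd79a, Cd79b, Ms4a1, Pax5, Cd22 and Ebf1, were detected on all arrays of both genotypes. Of 6 B-1a markers, 5 were detected on at least 4 KO arrays and 6 on at least 4 WT arrays, and Cd5 itself was detected on 3 KO and 6 WT arrays. Of 8 macrophage markers, 6 were detected on at least 4 arrays in each genotype. The log2 of the summed level of all 8 ranged over 8.21 to 13.5 in KO and 8.66 to 10.1 in WT. Itgam dominated that sum, with mean levels of 10.5 in KO and 9.36 in WT, and Csf1r came next at 3.98 and 3.29. The range therefore describes mainly Itgam and is not a measure of macrophage content. Of the 8 markers only Lyz2 had a lower mean in KO, 0.73 against 2.99 in WT. It was detected on 4 KO and 7 WT arrays. In such bulk samples, fewer cells of a type and less RNA per cell cannot be told apart. The 2 Bmi1 probes were not lower in the arrays labelled KO, with differences of 3.74 (limma, adjusted p = 0.176) and 1.09 (adjusted p = 0.548). Whether these probes lie in the deleted part is not given, so they do not check the genotype.

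Lin28a, which recruits a uridylating enzyme to let-7 precursors, was read by 1 probe (A_55_P2074371, mm9 chr4:133559245-133559304, minus strand). It was detected on 3 of 7 KO and 4 of 7 WT arrays. Its lowest, median and highest levels were -4.25, -1.17 and 0.02 in KO and -4.29, -2.996 and -1.52 in WT. KO values exceeded the highest WT value on 4 of 7 arrays, and the groups overlapped. Of those 4 arrays, KO set 2 replicate 3 and KO set 1 replicate 2 detected the probe, and KO set 2 replicates 1 and 2 did not. Those of set 2 were all dim arrays. The difference was 1.09 (SE 0.70, limma, adjusted p = 0.442), 0.19 without the dim arrays, and -0.27 with scaling to the probes that every array detected.

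Lin28b, the paralogue that also blocks let-7 precursors before they are processed, was read by a pair of probes. A_52_P532355 (mm9 chr10:45140412-45140471, minus strand) was detected on no array, with processed intensities of 3.47 to 10.3 in KO and 3.60 to 18.4 in WT. It is shown because it lies in the coding sequence, over the cold shock domain that contacts the RNA.
Lin28b A_52_P532355: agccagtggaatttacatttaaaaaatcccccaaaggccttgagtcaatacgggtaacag
A_55_P1970905 (mm9 chr10:45096468-45096527, minus strand) was detected on 2 KO arrays, set 1 replicate 2 and set 2 replicate 3, and on 1 WT array, set 2 replicate 3. On KO set 1 replicate 2 its level was -0.09, whereas the A_52_P532355 probe stayed at -6.20, the lowest level of that probe in KO. Neither was bright enough for the test. With no filter on dim probes, their differences were 1.16 (adjusted p = 0.417) for A_52_P532355 and 1.43 (adjusted p = 0.417) for A_55_P1970905. The exact permutation p-values within sets, two-sided, were 0.0657 and 0.137, and the smallest that this design allows is 0.00143.

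The Igf2bp genes encode RNA-binding proteins that bind and stabilise mRNAs in embryonic tissue. Igf2bp3 (A_52_P508974, mm9 chr6:49035710-49035769, minus strand) was detected on 5 of 7 KO and 4 of 7 WT arrays. Its KO levels were 0.57, 0.29 and -5.18 in set 1 and -3.04, 6.43, 3.50 and 0.82 in set 2. Its WT levels were -5.04, -2.42 and -4.20 in set 1 and -1.53, -1.23, -0.90 and -4.70 in set 2. All 5 KO arrays that detected it lay above the highest WT value, whereas the other 2 KO arrays lay among the WT values or below them. The highest level was on the dimmest array, KO set 2 replicate 2, where the processed intensity was 1066, against at most 81.0 on a WT array. The mean level was 0.49 ± 3.85 in KO and -2.86 ± 1.75 in WT (SD, n = 7 each).

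The Igf2bp3 difference of 3.34 had a 95% confidence interval of 0.61 to 6.08. Its unadjusted limma p was 0.0195, its adjusted p 0.338, and its exact permutation p within sets, two-sided, 0.0457. It was positive in both sets, 2.45 in set 1 (SE 1.94) and 4.02 in set 2 (SE 1.68), and 3.75 without the 4 dim arrays (adjusted p = 0.572). Leaving out 1 array at a time kept it between 2.48 (without KO set 2 replicate 2) and 4.17 (without KO set 2 replicate 1), with adjusted p between 0.180 and 0.488. With scaling to the probes that every array detected it was 1.99, and with normexp background correction and quantile normalization together 1.58, against 2.61 with quantile normalization alone.

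Igf2bp1 (A_51_P497113, mm9 chr11:95824526-95824585, minus strand) was detected on no array, and its processed intensity spanned 3.23 to 4.39 in KO and 3.28 to 5.75 in WT. Both Igf2bp2 probes were dim as well. A_51_P315682 (mm9 chr16:22059260-22059319, minus strand) was detected on 0 KO arrays and 3 WT arrays, all in set 2. A_55_P2170737 (mm9 chr16:22059582-22059641, minus strand) was detected on 0 KO arrays and 2 WT arrays, and its highest level was 0.95 on WT set 1 replicate 2. These Igf2bp2 levels did not allow a lower bound on any fold difference, because the WT mean lay below the detection limit of the KO arrays. With no filter, the differences were 0.22 (adjusted p = 0.841) and -0.60 (adjusted p = 0.725).

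The Hmga genes encode small chromatin proteins with AT-hooks, which bind the minor groove of AT-rich DNA and bend it. Hmga1 was read by 3 probes on chromosome 17. A_51_P483118 (mm9 chr17:27700543-27700602, plus strand) was detected on 6 of 7 arrays in each genotype. Its lowest, median and highest levels were -1.63, 0.98 and 3.42 in KO and -3.61, -0.69 and 0.85 in WT. On 4 KO arrays it exceeded every WT value, and the groups overlapped below that. All but KO set 1 replicate 2 of these 4 were dim arrays. The difference was 1.81 (SE 0.87, 95% confidence interval -0.03 to 3.66, limma, adjusted p = 0.371, exact permutation p = 0.0743). It was 2.30 in set 1 and 1.45 in set 2. It was 0.53 without the dim arrays and 0.46 with scaling to the probes that every array detected.

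A further Hmga1 probe, A_55_P2076057 (mm9 chr17:27696588-27696647, plus strand), is shown because it covers the codons of an AT-hook and the stretch after it, and because it ran against the others.
Hmga1 A_55_P2076057: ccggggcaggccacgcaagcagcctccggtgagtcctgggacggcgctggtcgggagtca
It was detected on 4 of 7 KO and 7 of 7 WT arrays. Its lowest, median and highest levels were -3.23, -2.03 and -0.03 in KO and -2.22, -1.45 and 0.52 in WT. No KO value exceeded the highest WT value, and 3 KO values lay below the lowest WT value. The difference was -0.80 (SE 0.67, adjusted p = 0.557), with a value of -0.95 without the dim arrays and -2.15 with scaling to the probes that every array detected. It was the only tested probe of the 10 genes with a negative difference under the main scaling. The array design lists the Hmga1 probes under different transcript records. Which splice forms each probe reads was not looked up, so they may not read the same transcripts.

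A_66_P102232 (mm9 chr17:27693913-27693973, plus strand) was detected on 6 of 7 KO and 7 of 7 WT arrays. Its levels spanned -2.40 to 0.11 in KO (median -1.51) and -2.78 to -0.997 in WT (median -1.77). Its difference of 0.59 (SE 0.51, adjusted p = 0.570) was -0.07 without the dim arrays and -0.77 with scaling to the probes that every array detected. Across the 14 arrays the levels of A_51_P483118 and A_55_P2076057 had r = -0.52, those of A_51_P483118 and A_66_P102232 r = 0.36, and those of A_55_P2076057 and A_66_P102232 r = -0.15. These probes share the arrays and their scaling, so the correlations are descriptions only. The GC content was 41.7% for A_51_P483118, 73.3% for A_55_P2076057 and 81.7% for A_66_P102232.

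Hmga2, whose mRNA is a classical let-7 target, had a pair of probes on chromosome 10. The 5p arm of let-7a and the part of A_52_P300730 that pairs with its seed are shown, with the seed (bases 2 to 8) and the site in capitals. The microRNA sequence is from RefSeq (GRCm38.p6), in which 9 of 10 let-7 names share this seed, and the printed stretch of the probe lies at mm9 chr10:119798739-119798763 on the minus strand.
mmu-let-7a-5p: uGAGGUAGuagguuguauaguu
Hmga2 A_52_P300730 site: aacacactaCTACCTCttaagtccc
The site CTACCTC was in 1 of the 22 probes and in 0.366% of all 55681 probes, and its reverse complement GAGGTAG in 0 of the 22 and 0.259% of all. A match is a description of the letters, and a probe covers only 60 bases of a transcript.

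That Hmga2 probe, A_52_P300730 (mm9 chr10:119798739-119798798, minus strand), was detected on 3 of 7 KO and 4 of 7 WT arrays. Its KO levels were -6.46, -4.39 and -5.23 in set 1, detected on none of these arrays, and -1.36, 0.83, 2.64 and -2.81 in set 2, detected on the last 3. Its WT levels were -3.49, -3.37 and -2.19 in set 1 and -2.56, -3.26, -4.83 and -1.40 in set 2. In set 1 every KO value lay below every WT value, and in set 2 the highest 3 values were KO, all on dim arrays. The lowest of these 3, -1.36, came from an undetected intensity of 12.8. The WT level of -1.40 came from a detected intensity of 51.5. The share of all probes whose groups lay apart within a set was not counted. The difference was -2.34 in set 1 (SE 1.25) and 2.83 in set 2 (SE 1.08). The difference between the sets was 5.18 (SE 1.65, limma interaction, adjusted p = 0.863 over the tested probes), so it did not pass the test, nor did that of any of the 29689 probes tested (0%). Pooled over sets the genotype difference was 0.62 (SE 1.03, adjusted p = 0.787). It was -1.37 without the dim arrays, -0.08 without KO set 2 replicate 3, and -0.74 with scaling to the probes that every array detected. The other Hmga2 probe, A_55_P2043921 (mm9 chr10:119800621-119800680, minus strand), was detected on no array.

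**Figure D2:**
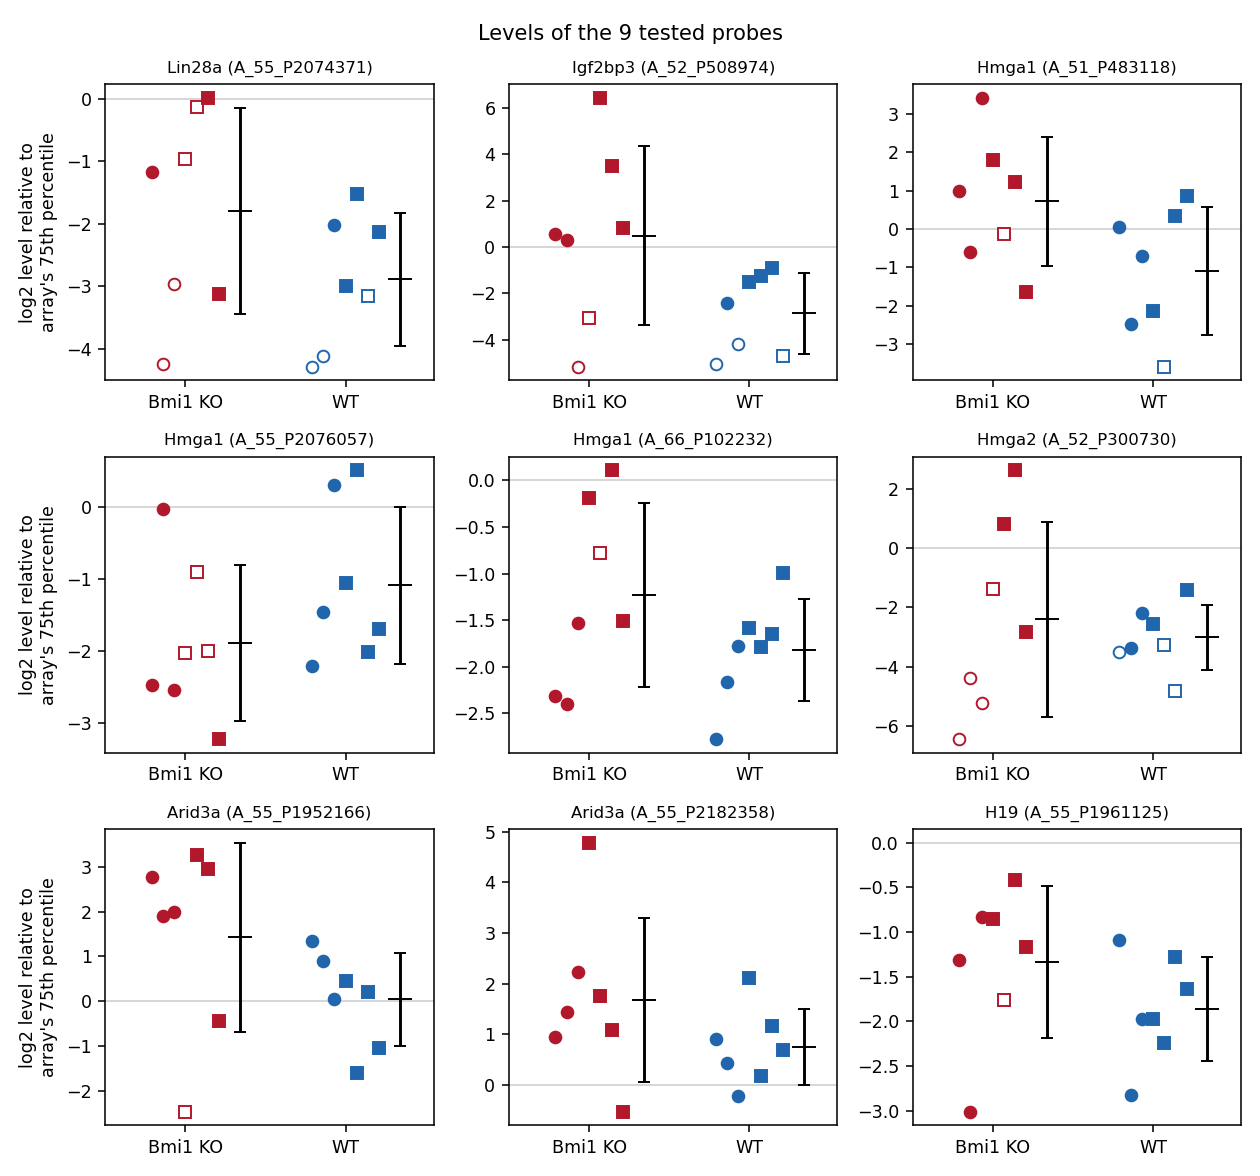
Log2 level relative to the array's 75th percentile (vertical axis) on each of the 7 Bmi1 KO and 7 WT arrays, for the 9 tested probes, with circles for set 1 and squares for set 2. Filled symbols are well above background and open ones are not, and the tick with its bar is the mean ± SD. The KO values spread wider than the WT values for 8 of the 9 probes, and the groups overlap for all 9. The share of all probes with a wider KO spread was not counted.

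Arid3a (also called Bright) binds AT-rich sites beside the immunoglobulin heavy chain locus and raises its transcription. It was read by a pair of probes in the same part of the gene, their starts 321 bases apart. A_55_P1952166 (mm9 chr10:79417377-79417436, plus strand) was detected on 6 of 7 KO and 7 of 7 WT arrays. Its KO levels were 2.77, 1.90 and 1.99 in set 1 and -2.48, 3.27, 2.96 and -0.44 in set 2. Its WT levels were 1.35, 0.89 and 0.04 in set 1 and 0.45, -1.60, 0.19 and -1.04 in set 2. In 5 of 7 KO arrays the level exceeded every WT value. Of those 5, KO set 1 replicate 4 and KO set 2 replicates 2 and 3 were dim arrays. In KO set 2 replicate 1, also dim, it lay below every WT value and was not above background. The mean was 1.43 ± 2.12 in KO and 0.04 ± 1.04 in WT (SD, n = 7 each).

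The difference for this Arid3a probe was 1.38 (SE 0.82, 95% confidence interval -0.35 to 3.12, limma, adjusted p = 0.417, exact permutation p = 0.134). It was nearly equal in the sets, 1.46 in set 1 and 1.33 in set 2. It was 0.97 without the dim arrays, 1.98 without KO set 2 replicate 1, and 0.03 with scaling to the probes that every array detected.

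A_55_P2182358 (mm9 chr10:79417698-79417757, plus strand) was the only probe of the 22 detected on all 14 arrays. Its KO levels were 0.95, 1.45 and 2.23 in set 1 and 4.78, 1.77, 1.08 and -0.53 in set 2. Its WT levels were 0.91, 0.43 and -0.22 in set 1 and 2.11, 0.19, 1.18 and 0.69 in set 2. The highest value was on KO set 2 replicate 1, the array on which A_55_P1952166 read lowest, and 7.26 log2 units separated the probes there, against a median gap of 1.24 over the 14 arrays. The mean was 1.68 ± 1.62 in KO and 0.76 ± 0.75 in WT (SD, n = 7 each), a difference of 0.92 (SE 0.72, adjusted p = 0.527, exact permutation p = 0.213). It was -0.13 without the dim arrays and -0.44 with scaling to the probes that every array detected. Across arrays the Arid3a probes had r = -0.12 and rho = 0.31 with each other.

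Igf2, the fetal growth factor, and H19, a non-coding RNA, are oppositely imprinted neighbours, and H19 is the host of a microRNA. Igf2 (A_55_P2118173, mm9 chr7:149839661-149839720, minus strand) was detected on no array, with processed intensities of 3.47 to 4.66 in KO and 3.57 to 10.2 in WT. Its scaled difference of 0.64 (no filter on dim probes, adjusted p = 0.579) thus came from arrays that all read at background. It was -0.55 in set 1 and 1.53 in set 2, the set that holds 3 of the 4 dim arrays.

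H19 was covered by 7 probes within 925 bases, measured between the 5′ ends of the outermost probes. Their detection differed, and 3 of them are shown because they are close neighbours that read differently, with the first detected on 13 arrays, the second on 1 and the third on 2.
H19 A_55_P1961125: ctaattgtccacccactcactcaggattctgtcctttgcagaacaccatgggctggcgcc
H19 A_30_P01026972: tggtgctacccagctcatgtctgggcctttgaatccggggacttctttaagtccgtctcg
H19 A_30_P01028827: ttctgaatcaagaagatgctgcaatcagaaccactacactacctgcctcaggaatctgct
They lie on the minus strand of mm9 at chr7:149762417-149762476, chr7:149762173-149762232 and chr7:149762113-149762172. The first is the most 5′ probe, and the others start 244 and 304 bases from it.

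A_55_P1961125 was detected on 6 of 7 KO and 7 of 7 WT arrays. Its lowest, median and highest levels were -3.01, -1.17 and -0.42 in KO and -2.82, -1.97 and -1.09 in WT. On 3 KO arrays, all of them dim arrays, it exceeded every WT value, and the groups overlapped. Their processed intensities were 71.6, 18.2 and 29.3, below the highest WT intensity of 78.8. The difference was 0.52 (SE 0.55, 95% confidence interval -0.64 to 1.68, adjusted p = 0.647), with 0.12 without the dim arrays and -0.83 with scaling to the probes that every array detected. The other 6 H19 probes were detected on 0 KO arrays and on 1 or 2 WT arrays each. WT set 1 replicate 3 detected 5 of these 6, and A_55_P1961127, the most 3′ probe, was detected on WT set 1 replicate 4 alone. Their levels allowed no lower bound on a fold difference.

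**Figure D3:**
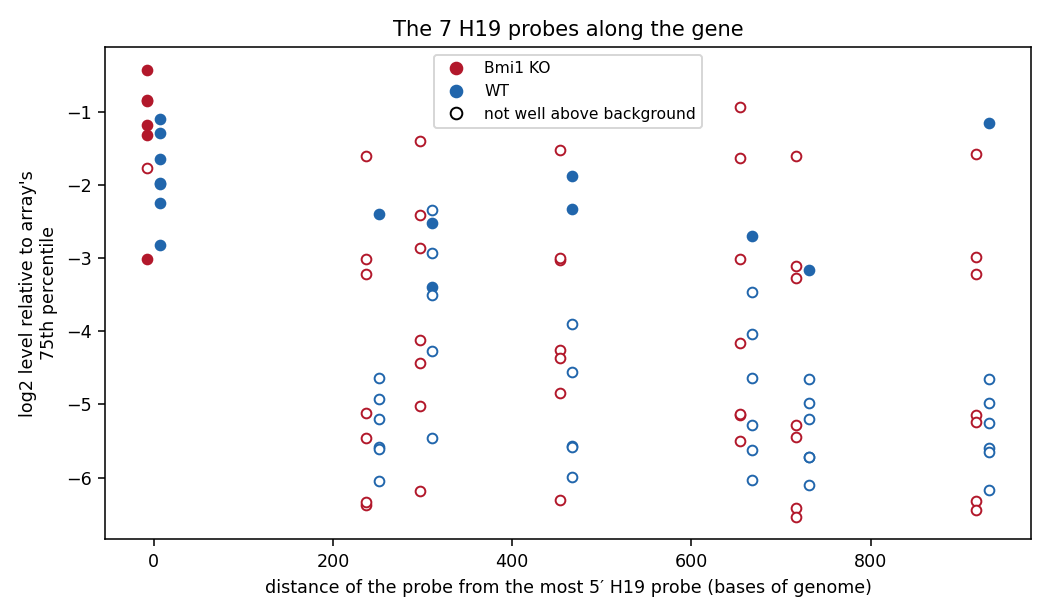
Log2 level relative to the array's 75th percentile (vertical axis) of the 7 H19 probes, placed by distance in bases from the most 5′ probe (horizontal axis), for each Bmi1 KO and WT array. The probe at 0 was detected on 13 of 14 arrays, and those at 244 to 925 bases on 1 or 2 WT arrays each.

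Read together, 0 of the 22 probes passed an adjusted p of 0.05, against 0.0303% of all 29689 tested probes (9 probes, of which 1 was higher and 8 lower in KO). With no filter on dim probes it was again 0 of 22, against 0.0162% of all 55681. At an unadjusted limma p under 0.05 there was 1 of the 9 tested probes, Igf2bp3, against 13.6% of all tested probes. With no filter there were 2 of 22, against 12.1%. Groups did not overlap for 0 of the 22 probes, against 0.151% of all 55681. How often single KO arrays exceeded every WT value was not counted over all probes.

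By value, 19 of the 22 differences were positive, and so were 75.3% of all probes. Among tested probes 8 of 9 were positive, with a median of 0.92 beside 0.32 over all tested probes. Positive differences numbered 8 of 9 with quantile normalization, 5 of 9 without the dim arrays and 3 of 9 with scaling to the probes that every array detected. The 3 were Igf2bp3, Hmga1 A_51_P483118 and Arid3a A_55_P1952166. Slides coincided with scan days. Set 1 lay on slide 1, and within slide 2 alone (4 KO and 2 WT arrays of set 2) the differences were 3.14 for Igf2bp3, 3.52 for Hmga2, 2.02 for Lin28a, 1.21 for Hmga1 A_51_P483118, 0.51 for Arid3a A_55_P1952166 and 0.13 for Arid3a A_55_P2182358, none past the test. With slide as a block, they were 2.77 for Igf2bp3, 0.42 for Hmga2, 1.31 for Lin28a, 1.79 for Hmga1 A_51_P483118, 1.01 for Arid3a A_55_P1952166 and 0.68 for Arid3a A_55_P2182358. Over the alternatives run for the tested probes, the smallest adjusted p was 0.166, for Hmga1 A_55_P2076057 with that scaling.

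**Figure D4:**
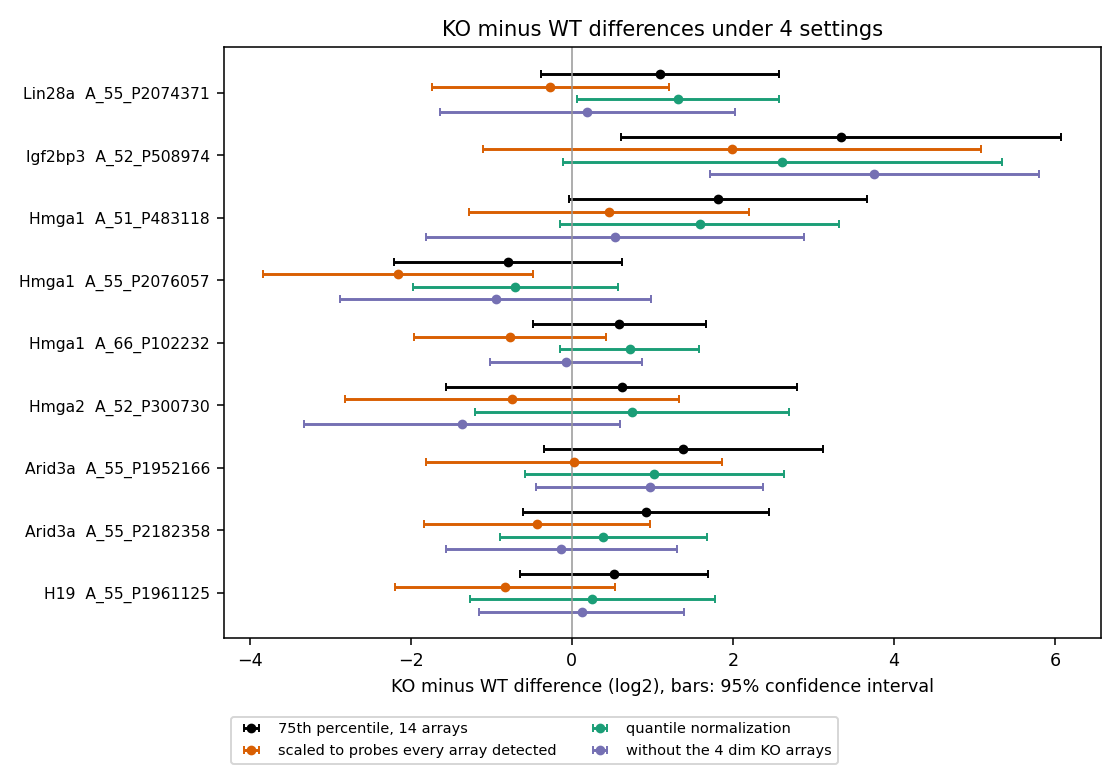
KO minus WT difference on the log2 scale (horizontal axis) for the 9 tested probes under 4 settings, with bars for the 95% confidence interval. Igf2bp3 stays above 1.9 in each setting, and 5 probes that are positive under the main scaling fall below 0 when scaled to the probes that every array detected.

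Genes around the programme were read from 6 lists, each gene by its brightest tested probe. No list gene passed an adjusted p of 0.05 under the main scaling, and 1, Igf2r, passed with scaling to the probes that every array detected. Of all 29689 probes tested, that scaling called 1 higher and 133 lower in KO, with a median difference of -1.04. The smallest adjusted p in a list lay between 0.182 and 0.371 under the main scaling. Of 20 genes of let-7 biogenesis and decay 19 were tested, 0 with an unadjusted p under 0.05, and their median difference was 0.80 beside 0.32 over all tested probes. The smallest p-values there were for Tut4, which adds uridines to let-7 precursors bound by Lin28a (-2.47, adjusted p = 0.371), its cofactor Trim25 (1.12, adjusted p = 0.382) and Tut7 (1.497, adjusted p = 0.403). Without the dim arrays the differences were -2.16 for Tut4, -0.07 for Trim25 and 0.72 for Tut7. Of 32 let-7 targets 22 were tested, with 2 higher and 3 lower at an unadjusted p under 0.05 (13.6% of all tested probes, either direction) and a median of 0.28. Among the leading ones were Nras, a small GTPase (2.52, adjusted p = 0.231, 0.93 without the dim arrays), and Plagl2, a zinc finger factor (2.25, adjusted p = 0.345, 0.73 without them).

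Of 26 genes of the H19 and Igf2 imprinted network 15 were tested, with a median of 0.35. At an unadjusted limma p under 0.05 there were 1 higher and 1 lower, against 13.6% of all tested probes in either direction. Igf2r, the receptor that clears Igf2 from the cell surface, was detected on 0 of 7 KO and 5 of 7 WT arrays. Its bound was at least 1.60-fold lower in KO, which did not pass the test (adjusted p = 0.319), with measured mean levels of -4.22 in KO and -1.82 in WT. The fitted difference of -2.41 was -4.34 without the dim arrays (adjusted p = 0.502) and -3.76 with scaling to the probes that every array detected (adjusted p = 0.0339). With that scaling the median over all tested probes was -1.04. Ctcf, which binds the imprinting control region between Igf2 and H19, differed by 2.15 (adjusted p = 0.328, 0.37 without the dim arrays). Zfp57, which keeps imprints methylated, differed by 1.25 (adjusted p = 0.374, -0.07 without them).

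Of 27 genes of fetal and adult B lymphopoiesis 19 were tested, with a median of 0.53. At an unadjusted limma p under 0.05 there were 2 higher and 1 lower (13.6% of all tested probes, either direction). Bhlhe41, a repressor that B-1a cells need, averaged -0.23 ± 3.24 in KO and 4.38 ± 0.40 in WT (SD, n = 7 each), a difference of -4.61 (SE 1.10, adjusted p = 0.182, -3.05 without the dim arrays). Ikzf1, a lymphoid zinc finger factor, differed by 2.67 (adjusted p = 0.309) and Bcl11a, a repressor of fetal globin genes that B cells also need, by 1.45 (adjusted p = 0.368). Without the dim arrays these were 0.33 for Ikzf1 and 0.61 for Bcl11a. All 15 genes of the ARID3 family and partners list were tested, with 4 higher and 3 lower at an unadjusted p under 0.05 (13.6% of all tested probes, either direction) and a median of 0.04. Gtf2i, which joins Arid3a at the heavy chain promoter, differed by -3.31 (adjusted p = 0.256, -2.17 without the dim arrays). Pou2af1, a coactivator of octamer factors, differed by 2.49 (adjusted p = 0.292, 0.94 without them) and Sp100, a nuclear body protein that binds Arid3a, by 1.80 (adjusted p = 0.309, 0.54 without them). Of 11 other HMG chromatin proteins 9 were tested, with a median of -0.30. At an unadjusted limma p under 0.05 there was 1 higher, against 13.6% of all tested probes in either direction. It was Hmgb1 (1.42, adjusted p = 0.368, 0.04 without the dim arrays). The next 2 by p in that list were Hmgn2 (-0.50, adjusted p = 0.763, -0.05 without the dim arrays) and Hmgn5 (0.48, adjusted p = 0.765, -0.04 without them).

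The genes most like each well detected gene of the 10 were sought by Pearson correlation over the 14 arrays after the mean of each genotype in each set was taken off, among about 8260 genes detected on at least 10 arrays. For Hmga1 (A_51_P483118) they were Rrp12 (r = 0.91), Znf512b (r = 0.90) and Olfr481 (r = 0.89). For Arid3a (A_55_P2182358) they were Ccdc42b (r = 0.93), Fam108c (r = 0.92) and Polr2a (r = 0.91). By rank, the Spearman rho of these was 0.93 for Ccdc42b but 0.73 for Fam108c and 0.74 for Polr2a. For H19 (A_55_P1961125) they were Elp3 (r = 0.83), Lamtor4 (r = 0.82) and Rbm4 (r = 0.82). All points share arrays and their scaling, and these values describe likeness only.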

How the data were processed

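Each array held 62976 spots, of which 59305 were not controls. Intensity of each spot came from Agilent Feature Extraction (version 10.7.3.1, per the file headers), and positions refer to mm9. Marks scored 0 or 1 per the file headers gave signal well above background and outliers. The deposited table of log2 values had a median of 3.95 in all 14 columns and followed the quantile-normalized scanner values (r at least 0.999), so its scale, direction and lack of centring by gene are settled while its tool is unknown. It served as an alternative.

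Values were log2 of processed intensity minus the 75th percentile of each array, without outlier spots, with spots of a probe averaged and probes of a gene kept apart. Files were read with data.table (version 1.17.8) in R 4.3.3. Tests used limma 3.58.1 with lmFit and eBayes, experiment set as a covariate and two-sided p-values. Benjamini-Hochberg adjustment was over all probes tested, with a threshold of 0.05. The fit was checked on simulated data with independent noise of equal spread in both genotypes. The simulated data had no set effect and no dim arrays, so the check does not cover data with either. Exact permutation tests moved genotype within sets (1400 arrangements). Figures used matplotlib 3.10.9 in Python 3.11.15.

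All 10 genes were named by every probe, 3 genes of each list by smallest p, and 3 of highest r for likeness; one such list gene is not reported here. The genes and lists were chosen with earlier results of these data known. Same-numbered samples of the genotypes did not deviate together (correlations of -0.22 to 0.19 over 7 pairs). This cannot show that they were unpaired, and the labels do not say. The main fit took no pairing into account, and a replicate block was run as an alternative. Slide and scan day coincided. Slide 1 held set 1 and slide 2 held 4 KO and 2 WT arrays of set 2, with the other 2 WT arrays on slide 3. Alternatives were other scalings, normexp background correction with an offset of 50 together with quantile normalization, other filters on dim probes, the brightest probe of each gene name, no set term, slide as a block, a replicate block, each array left out, and, added after seeing the data, no dim KO arrays and slide 2 alone. RefSeq microRNA names and sequences refer to GRCm38.p6. No mm9 annotation of exons was used here.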

Additional observations from a re-analysis of the deposited data

Results flagged for a closer look

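A sample stood apart from the other 6 of its genotype for 3 of 44 combinations of probe and genotype, and chance alone gives about 1 in 20. Lin28b A_52_P532355 read -2.89 on WT set 2 replicate 4, with the nearest other WT value at -4.72. H19 A_30_P01026972 read -2.40 on WT set 1 replicate 3, with the nearest other WT value at -4.64. H19 A_55_P1961127 read -1.15 on WT set 1 replicate 4, with the nearest at -4.65. The 2 H19 probes were well above background on those arrays, and the Lin28b probe was not.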

How the results depend on the processing

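No tested probe of the 10 genes passed the threshold under any alternative. Scaling to the probes that every array detected turned the differences to -0.44 for Arid3a A_55_P2182358, -0.83 for H19 A_55_P1961125, -0.77 for Hmga1 A_66_P102232, -0.74 for Hmga2 A_52_P300730 and -0.27 for Lin28a, and let 1 list gene, Igf2r, pass (adjusted p = 0.0339). Leaving out the 4 dim KO arrays, chosen after seeing the data, turned them to -0.13 for that Arid3a probe, -0.072 for that Hmga1 probe and -1.37 for Hmga2, which lay between -0.082 (without KO set 2 replicate 3) and 1.10 with 1 array left out. Among all probes, 1 was called higher and 8 lower in KO. These counts were 1 and 133 with that scaling, 1 and 25 with quantile normalization and with the deposited table, 3 and 31 with normexp and quantile normalization together, 1 and 20 with the filter of all 7 arrays, 1 and 4 with 1 probe a gene name, 0 and 8 with slide as a fixed block, and 0 and 5 without the dim arrays. Leaving out 1 array gave 0 to 16 higher and 5 to 49 lower, with 16 and 49 without KO set 1 replicate 3 and 2 and 35 without KO set 2 replicate 4. With the replicate block there were 1 higher and 7 lower, and the tested probes had adjusted p-values of 0.341 to 0.826. The cause of these shifts was not tested. The signal of 13 of the 22 probes near background limits what can be said of them. Lin28a and Hmga2 A_52_P300730, though tested, were detected on only 7 of the 14 arrays, and Igf2bp3 on 9.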

Other observations

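The level varied more among the KO than among the WT arrays for 19 of the 22 probes by SD. The share over all probes was not counted, so this does not set these genes apart. The 75th percentile of log2 signal, which is taken off every level, itself had an SD of 1.73 among KO and 0.337 among WT arrays. Differences were positive for 9 of the 22 probes in set 1 and 21 of 22 in set 2, and 10 of the 22 had the same sign in both. Set 2 holds 3 of the 4 dim KO arrays, and their part in this was not tested.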
